A study of Mus musculus with 4 samples.

Results

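The nuclear genes of respiratory complexes II to V were followed in tibialis anterior muscle of mice labelled as Nf1-KO or as heterozygous controls. Members were chosen by gene name: the succinate dehydrogenase subunits Sdha to Sdhd and their Sdhaf assembly factors, the Uqcr names and Cyc1 of complex III, cytochrome c (Cycs), the nuclear Cox names of complex IV, and the Atp5 names of complex V. The names matched 60 rows, of which Cox8c and Uqcr11 were listed at 0 in all 4 libraries and were left out, so 58 of 32868 named genes are members. Cox4i1 and the mitochondrially encoded Cox2 fall outside these names.

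RNA came from the tibialis anterior, a fast hind limb muscle, of C57BL/6 mice at postnatal day 21. The control group, Het, has the label Nf1flox/+/Myf5+, and the Nf1-KO group has the label Nf1flox/flox/Myf5+, with 2 libraries in each. Both groups therefore carry the Myf5 allele and at least 1 floxed Nf1 allele, and no group without either was measured. Nf1 encodes neurofibromin, which turns off Ras, and the series is about muscle growth after birth and metabolism when it is lost. In crosses of this kind the Myf5 allele drives Cre in muscle precursors, which would leave the alleles of nerve, vessel and immune cells in the tissue intact, but the labels name no Cre. The labels do not say whether libraries came from separate animals, so the p-values measure the spread between these libraries, which may be technical.

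The respiratory chain passes electrons from NADH and succinate to oxygen and pumps protons as it does so, and ATP synthase uses the proton gradient to make ATP. Complex II is succinate dehydrogenase, which also belongs to the citric acid cycle. Complex III passes electrons to cytochrome c, complex IV (cytochrome c oxidase) passes them to oxygen, and complex V is ATP synthase. All subunits of complex II, and most of the others, are encoded in the nucleus, and fast glycolytic fibres hold fewer mitochondria than oxidative fibres.

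Values as the authors deposited them were taken to be RPKM, reads divided by gene length and library depth. No header or label names the unit. Fold changes are differences in log2(RPKM + 1) between Nf1-KO and Het after each library was divided by a scaling factor of 0.967 to 1.03, and a gene was called when its adjusted p from limma was under 0.05. Libraries held an estimated 36500000 to 58100000 reads, and the authors' deposited table gave the tested members mean normalized counts of 70.4 to 172142. The targeted gene Nf1 held 1.09 and 1.01 RPKM in Het and 0.89 and 0.85 RPKM in Nf1-KO, a log2 fold change of -0.18 (limma adjusted p 0.041). At so low a level the added 1 makes this change smaller than that of the RPKM themselves. The 7 skeletal muscle fibre markers, among them Acta1 and Ckm, summed to 44230 to 44448 RPKM in Het and 36810 to 37254 RPKM in Nf1-KO, with 2 of 7 higher (Myh1 and Des) and 5 lower (Myh4, Acta1, Ttn, Tnnt3 and Ckm). Among them the fast myosin genes moved in opposite directions: Myh4, of type IIB fibres, fell from 6767 and 7015 RPKM to 3508 and 3428 RPKM, and Myh1, of type IIX fibres, rose from 2354 and 2443 RPKM to 3712 and 3644 RPKM. The part of this fibre-type difference in the changes of the subunit genes was not tested. Marker sums of other cells, as deposited and not scaled, were far lower, and each lay higher in Nf1-KO. Without scaling the median over all tested genes also lay higher, by 0.07 on the log2 scale, so small rises in these sums are not shown to follow genotype. A value of 0 is reported only as listed, since Sco2 and Coa6, assembly genes with a general role, were also listed at 0. All 5 Schwann cell markers rose, from 9.88 to 9.94 RPKM in Het to 22.7 to 24.4 RPKM in Nf1-KO, as did 3 of 3 tested immune markers of 7 (8.67 to 8.98 against 27.9 RPKM in both Nf1-KO libraries, with Adgre1 and its older name Emr1 at 0). Cardiomyocyte markers summed to 2.54 to 2.62 against 7.14 to 7.73 RPKM, with 2 of 2 tested of 5 higher and Myl7 at 0. Adipocyte markers summed to 3.08 to 3.45 against 4.68 to 5.30 RPKM, with 2 of 3 tested of 6 higher and Ucp1, which defines brown fat, at 0 in each library. Endothelial markers summed to 67.1 to 67.4 against 72.4 to 73.2 RPKM (2 of 4 higher, 1 lower), smooth muscle markers to 16.3 to 16.5 against 21.9 to 22.1 RPKM (1 of 2 higher), satellite cell markers to 6.92 to 7.16 against 7.76 to 7.91 RPKM (0 of 2 tested of 3 called), and blood markers to 1.37 to 1.47 against 1.62 to 1.78 RPKM (0 of 1 tested of 6 called, with Hba-a2, Hbb-b1 and Hbb-b2 at 0). The part of these other cells in the results was likewise not tested.

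Subunit genes of every one of the 4 complexes rose in Nf1-KO. Of the 58 members, 54 reached 0.5 RPKM in at least 2 libraries and were tested, and 44 were higher and 1, Cox19, lower. Among all 10690 tested genes, 50.3% were called, 24.9% as higher and 25.4% as lower (2661 and 2720 genes, against 3760 and 1883 without scaling). Both Nf1-KO libraries lay above both Het libraries in 48 members and below in 2, after scaling, against 38.2% and 38.1% of all tested genes. The 39 tested subunit genes, of 42 with such a role, were each called higher, with log2 fold changes of 0.09 to 0.58 and a median of 0.39, a 1.31-fold level. The median over all tested genes was 0.00. The 12 tested assembly factors, of 13, had a median of 0.04, with 3 higher (25%, near the share of all tested genes), 1 lower and 8 not called. In a bulk sample, a change in the share of a cell type or in its RNA per cell cannot be told apart.

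**Figure D1:**
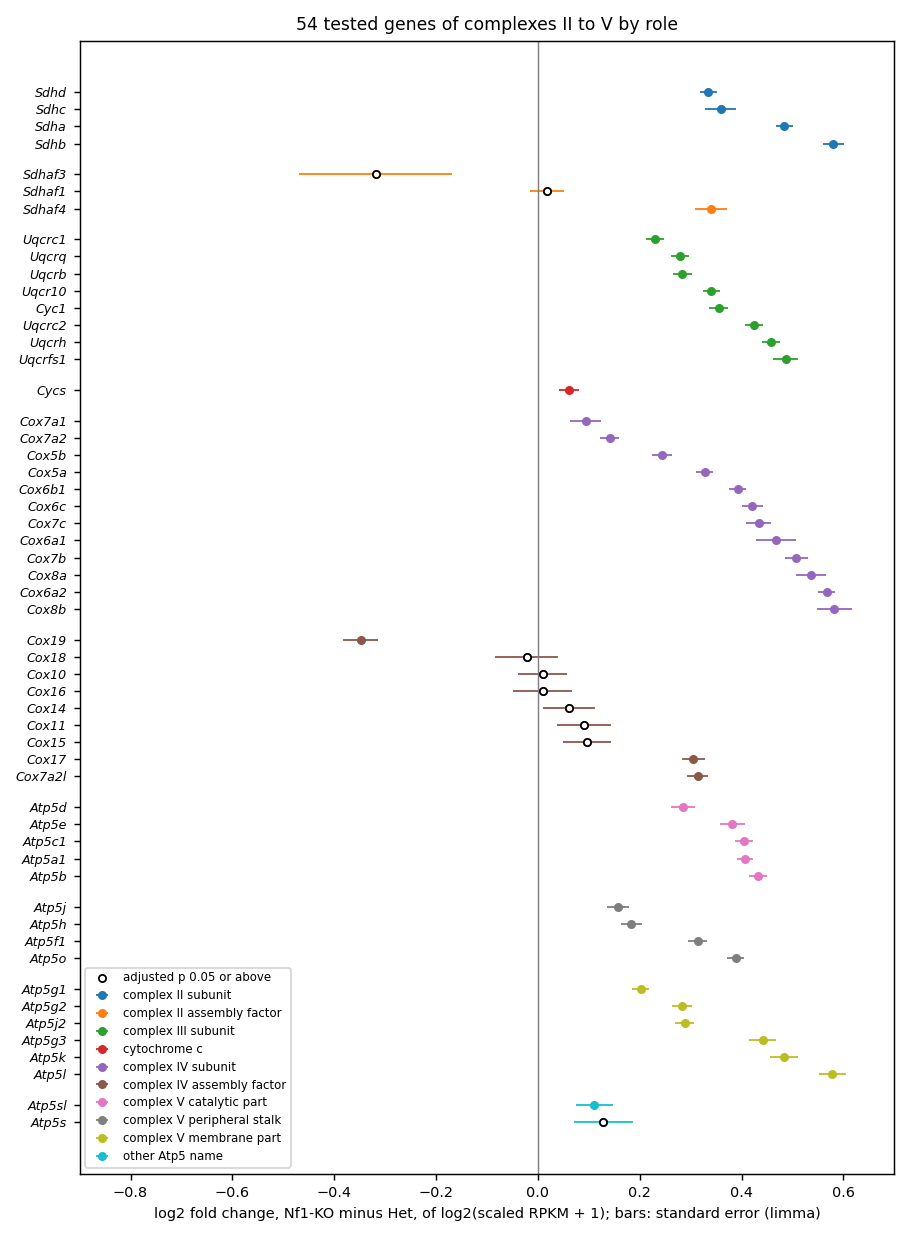
Log2 fold change of Nf1-KO against Het (x axis, from log2(scaled RPKM + 1)) for the 54 tested genes, ordered within each role; bars are limma standard errors and open points are genes not called. The 39 subunit genes lie between 0.09 and 0.58, whereas the assembly factors run from -0.35 to 0.34.

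Level matters to such counts, since 366 tested non-members of at least 100 RPKM were called higher in 58.5% of cases and the 10270 under 100 RPKM in 23.4%. All 38 members of at least 100 RPKM were higher, with a median log2 fold change of 0.37 against 0.17 for the non-members of that level. Of the 16 tested members under 100 RPKM, 6 were higher and 1 lower. The assembly factors, at 0.532 to 91.9 RPKM on average, are all in this lower group, and so are the subunit genes Cox6a1 and Cox8a. The limit of 100 RPKM was chosen after the values were seen.

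**Figure D2:**
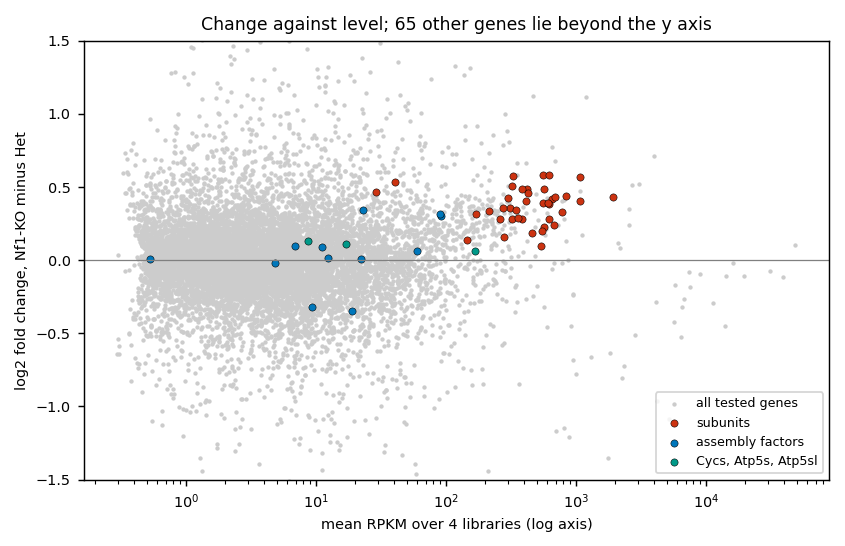
Log2 fold change (y axis) against mean RPKM over the 4 libraries (x axis, log scale) for all tested genes in grey and the members in colour; 65 other genes lie beyond the y axis. Subunit genes sit above 0 at levels from 29.1 to 1943 RPKM, and the assembly factors spread around 0 at lower levels.

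Summed over subunit genes, complex II held 1221 and 1193 RPKM in Het against 1794 and 1782 RPKM in Nf1-KO. Complex III held 2789 and 2750 RPKM in Het and 3746 and 3770 RPKM in Nf1-KO. For complex IV the sums were 5131 and 5083 RPKM in Het and 7129 and 7260 RPKM in Nf1-KO. Complex V, the largest of the 4, rose in the same manner, from 7512 and 7340 RPKM to 10260 and 10322 RPKM. In each complex both Nf1-KO sums lay above both Het sums, and after scaling the ratio of means was 1.39 for complex II, 1.27 for complex III, 1.32 for complex IV and 1.30 for complex V. With 2 libraries against 2, the exact two-sided permutation test cannot go below 0.33, which was its value for each complex. The 42 subunit genes together made up 3.09% of a library's summed RPKM in Het and 4.22% in Nf1-KO.

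**Figure D3:**
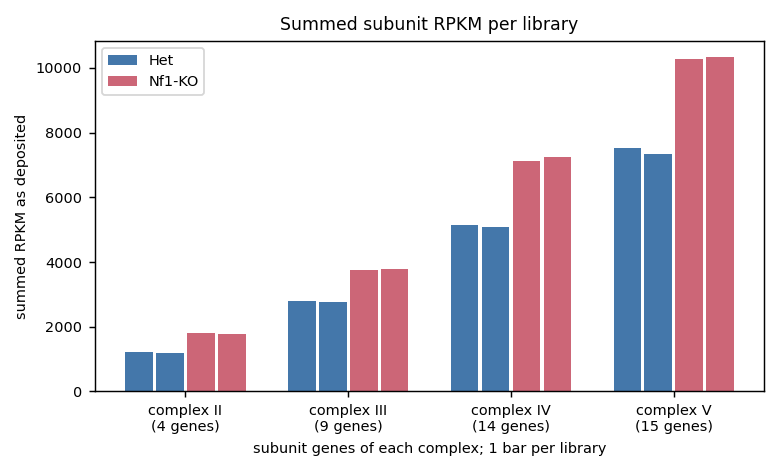
Summed RPKM as deposited (y axis, from 0) of the subunit genes of each complex, 1 bar per library. Both Nf1-KO bars stand above both Het bars in each complex, with scaled ratios of means from 1.27 in complex III to 1.39 in complex II.

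Promoters of all members, subunit genes and others alike, were searched for sites of factors known from mitochondrial or muscle genes. RefSeq windows of build GRCm38.p6 reach from 250 bases before to 50 bases after each gene's start, and 48 of the 58 members had one. The names not found were Sdhc, Uqcrc2, Cyc1, Uqcrb, Uqcrq, Cox6a2, Cox6c, Cox17, Cox18 and Atp5a1. The palindromic NRF1 motif with any base allowed in place of its only A was, on either strand, in 12 of the 48 (25%) and in 5.19% of all 27025 genes with a window; NRF1 is a regulator of nuclear genes for mitochondrial proteins. The stricter form with the A kept, which these matches include, was in 4 members, 8.33% against 1.07%. The letters TCAAGGTCA, bound by estrogen-related receptors, were in 2 members (4.17% against 0.466%), ACCGGAAG, bound by GABP, in 3 (6.25% against 2.60%), and the YY1 motif in 3 (6.25% against 0.995%). The muscle E-box CAGCTG was in 2 members (4.17% against 18.3%), and the MEF2 motif in none of the members and in 0.122% of all genes. The median log2 fold change was 0.36 in the 12 tested members with the open NRF1 motif and 0.29 in other tested members with a window. For the stricter NRF1 form these medians were 0.37 and 0.31, and for the estrogen-related receptor letters 0.39 and 0.30. They were 0.38 and 0.29 for the GABP letters and 0.51 and 0.30 for the E-box. For the YY1 motif they were 0.11 and 0.33. Its 3 members were the assembly factor Cox10, the subunit gene Atp5j, and Atp5sl, which has no subunit role here. Of the 12 with the open NRF1 motif, all but Sdhaf3 and Sdhaf4 were subunit genes. Members with the stricter form, or with the receptor, GABP or E-box letters, were all subunit genes. Most assembly factors with a window lacked each motif, so these medians differ by role as well. Medians within a role were not compared. Some members without any of these letters, such as Cox7b and Cox8a, rose too. A match describes letters only, and binding was not measured.

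The following 4 stretches, from subunit genes called higher, were picked because each holds a searched motif, so they do not represent the other windows. Each is the part of the 250 bases before the start that lies in no annotated exon, written 5′ to 3′ on the gene's strand in build GRCm38.p6, with motif letters in capitals. In Cox6a1 the capitals mark the open NRF1 motif at -162 from the start and, on the opposite strand, at -117. In Cox8b they mark an E-box at -19. In Atp5g3 they mark the receptor letters at -52 on the opposite strand, and in Atp5e the GABP letters at -102 on the opposite strand.
Cox6a1, chr5:115348982-115349129, minus strand: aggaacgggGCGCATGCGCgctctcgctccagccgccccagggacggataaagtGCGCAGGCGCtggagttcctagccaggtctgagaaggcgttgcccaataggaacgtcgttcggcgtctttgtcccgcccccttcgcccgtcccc
Cox8b, chr7:140900447-140900696, minus strand: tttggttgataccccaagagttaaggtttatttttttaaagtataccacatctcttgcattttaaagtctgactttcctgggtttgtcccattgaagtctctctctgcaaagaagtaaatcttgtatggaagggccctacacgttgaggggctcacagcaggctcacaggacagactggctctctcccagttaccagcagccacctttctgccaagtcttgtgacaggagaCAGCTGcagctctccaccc
Atp5g3, chr2:73911327-73911576, minus strand: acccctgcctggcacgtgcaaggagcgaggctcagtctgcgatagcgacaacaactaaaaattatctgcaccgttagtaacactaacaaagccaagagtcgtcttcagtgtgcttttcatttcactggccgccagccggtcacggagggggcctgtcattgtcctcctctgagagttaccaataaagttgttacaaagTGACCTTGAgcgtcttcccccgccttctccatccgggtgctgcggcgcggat
Atp5e, chr2:174464106-174464351, minus strand: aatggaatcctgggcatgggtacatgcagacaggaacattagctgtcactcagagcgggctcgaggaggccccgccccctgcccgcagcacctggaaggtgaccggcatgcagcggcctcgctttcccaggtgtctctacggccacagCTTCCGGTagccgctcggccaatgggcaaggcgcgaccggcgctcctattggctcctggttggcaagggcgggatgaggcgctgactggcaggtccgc

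Complex II rose in all of its subunit genes. Sdhb, the iron-sulfur subunit and the most abundant of them, held 433 and 420 RPKM in Het and 687 and 677 RPKM in Nf1-KO. Its log2 fold change of 0.58 (standard error 0.021, limma adjusted p 4.6e-06) was the second highest of all members. Sdha, the flavoprotein that oxidises succinate, held 335 and 337 RPKM in Het and 503 and 502 RPKM in Nf1-KO, a log2 fold change of 0.48. The membrane anchors rose less: Sdhc held 269 and 253 RPKM in Het against 357 RPKM in both Nf1-KO libraries, and Sdhd 183 RPKM in both Het libraries against 247 RPKM in both others. Their log2 fold changes were 0.36 and 0.33. In all 4 genes both Nf1-KO libraries lay above both Het libraries, as in 38.2% of all tested genes after scaling.

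The complex II assembly factors did not move as a group. Sdhaf4, which acts on the flavinated Sdha subunit, rose from 19.9 and 19.4 RPKM to 27.1 and 26.5 RPKM, a log2 fold change of 0.34 (limma adjusted p 2.5e-04). Sdhaf1, an iron-sulfur cluster factor, held 11.96 and 11.78 RPKM in Het and 12.8 and 12.9 RPKM in Nf1-KO, a log2 fold change of 0.02 (limma adjusted p 0.690). Sdhaf3 held 10.4 and 9.62 RPKM in Het and 10.1 and 6.86 RPKM in Nf1-KO. Its Nf1-KO libraries differed more from each other than the groups did, and its log2 fold change of -0.32 was not called (limma adjusted p 0.124). Without Nf1-KO replicate 1 the value was -0.56 (limma adjusted p 4.9e-04), and without Nf1-KO replicate 2 it was -0.06. Sdhaf2, at 0.03 to 0.06 RPKM, was not tested, and this value near the floor is reported only as listed.

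In complex III the 8 tested subunit genes rose with log2 fold changes of 0.23 to 0.49 (median 0.35). Uqcrfs1, the Rieske iron-sulfur protein, rose most, from 318 and 304 RPKM in Het to 462 and 468 RPKM in Nf1-KO. Its log2 fold change was 0.49 (standard error 0.025, limma adjusted p 2.0e-05). Uqcrq, a small subunit and the most abundant, held 546 and 541 RPKM in Het and 698 and 713 RPKM in Nf1-KO, a log2 fold change of 0.28. The core protein gene Uqcrc1 rose least, from 512 and 505 RPKM to 641 and 632 RPKM (0.23), whereas its partner Uqcrc2 rose by 0.42, from 249 and 248 RPKM to 357 and 355 RPKM. In both core protein genes the Nf1-KO libraries lay above both Het libraries, as in 38.2% of all tested genes after scaling. Cyc1, the cytochrome that hands electrons on, Uqcrh, Uqcr10 and Uqcrb rose by 0.35, 0.46, 0.34 and 0.28 on the log2 scale. Uqcr, an older name of Uqcr11, was listed at 0.09 to 0.24 RPKM and not tested. This value near the floor is reported only as listed.

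Cycs, the mobile carrier between complexes III and IV, rose little beside its neighbours. It held 158 and 157 RPKM in Het and 174 and 177 RPKM in Nf1-KO, a log2 fold change of 0.06 (standard error 0.019, limma adjusted p 0.037). Both Nf1-KO libraries lay above both Het libraries, as in 38.2% of all tested genes after scaling, but the call was close to the threshold. It was lost when either Het library or Nf1-KO replicate 2 was left out (limma adjusted p 0.116 to 0.135), and also without a variance trend (0.212), with no filter (0.128) and with the replicate block (0.056). Without scaling the log2 fold change of Cycs was 0.16 (limma adjusted p 0.0011), and the authors' deposited table gave an adjusted p of 0.091.

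Complex IV held both the highest and the lowest changes among subunit genes. Cox8b, the isoform of heart and skeletal muscle, rose most, from 486 and 477 RPKM in Het to 741 and 800 RPKM in Nf1-KO. The log2 fold change of Cox8b was 0.58 (standard error 0.034). Cox6a2, the muscle isoform of another small subunit and the most abundant gene of the complex, rose from 823 and 829 RPKM to 1320 and 1294 RPKM, a log2 fold change of 0.57 (standard error 0.018, limma adjusted p 2.7e-06). Among the other subunit genes, Cox5a rose by 0.33 and Cox5b by 0.24, and Cox6b1, Cox6c, Cox7b and Cox7c rose by 0.39, 0.42, 0.51 and 0.43 on the log2 scale. Cox7a1, the muscle isoform of the subunit at the dimer and supercomplex contact, held 511 and 497 RPKM in Het and 558 and 592 RPKM in Nf1-KO. Its log2 fold change of 0.09 (limma adjusted p 0.041) was the lowest of the subunit genes. The call for Cox7a1 was lost without Het replicate 1 (limma adjusted p 0.106), without Het replicate 2 (0.233) and without Nf1-KO replicate 2 (0.114), and the authors' deposited table gave an adjusted p of 0.071. Cox6b2 (0.09 to 0.57 RPKM) and Cox7b2 (at most 0.05 RPKM), isoforms known from testis, were not tested.

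For each complex IV subunit with a muscle and a ubiquitous isoform, both genes were called higher. Cox6a1, the ubiquitous partner of Cox6a2, was far lower in level, with 22.5 and 24.2 RPKM in Het and 34.5 and 35.2 RPKM in Nf1-KO, yet its log2 fold change was 0.47. The log2 ratio of Cox6a2 over Cox6a1 was 5.19 and 5.10 in Het and 5.26 and 5.20 in Nf1-KO. Cox8a, the ubiquitous partner of Cox8b, rose from 31.1 and 32.0 RPKM to 49.8 and 48.7 RPKM, a log2 fold change of 0.54. The log2 ratio of Cox8b over Cox8a was 3.97 and 3.90 in Het against 3.89 and 4.04 in Nf1-KO, where the groups overlapped. Cox7a2, the ubiquitous partner of Cox7a1, rose from 134 and 133 RPKM to 157 and 158 RPKM, only 0.14 on the log2 scale, and the log2 ratio of Cox7a1 over Cox7a2 was 1.93 and 1.90 in Het and 1.83 and 1.91 in Nf1-KO. Both Cox7a genes were thus the lowest of the complex IV subunit genes in log2 fold change. The differences in log2 ratio between groups were 0.08, 0.03 and -0.05 for the Cox6a, Cox8 and Cox7a pairs. Single libraries moved them: the Cox6a difference was 0.13 without Het replicate 1 and 0.036 without Het replicate 2, the Cox7a difference was -0.0069 without Nf1-KO replicate 1 and -0.089 without Nf1-KO replicate 2, and the Cox8 difference was 0.11 without Nf1-KO replicate 1 and -0.039 without Nf1-KO replicate 2. Over 7 isoform pairs in complexes IV and V, the exact two-sided permutation p was at least 0.33 (0.467 adjusted), the smallest this design allows, so small shifts cannot be resolved.

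**Figure D4:**
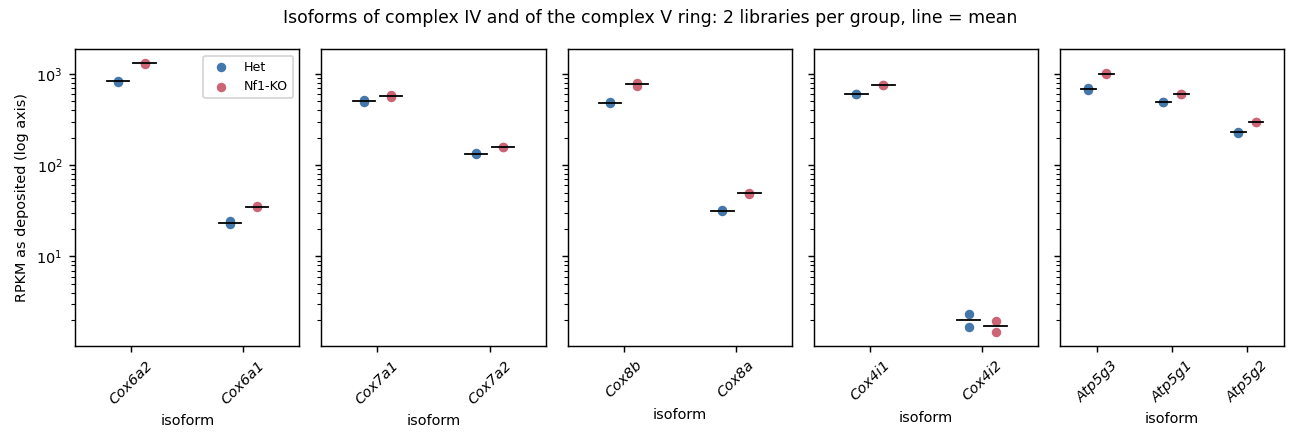
RPKM as deposited (y axis, log scale) of isoforms of complex IV subunits and of the complex V ring, with 1 point per library and a line at the group mean. Cox6a2 and Cox6a1, and Cox8b and Cox8a, are higher in both Nf1-KO libraries, Cox7a1 and Cox7a2 by smaller steps, and Cox4i2 overlaps between groups.

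Of the 9 complex IV assembly factors, 2 were higher (22.2%, against 24.9% of all tested genes) and 1 lower (11.1%, against 25.4%). Cox17, the copper chaperone of the intermembrane space, rose from 78.5 and 79.9 RPKM to 105 and 104 RPKM, a log2 fold change of 0.30. Cox7a2l, described as a factor for supercomplexes of complexes III and IV, rose from 77.7 and 78.0 RPKM to 104 and 103 RPKM. Its log2 fold change was 0.31 (limma adjusted p 6.5e-05). Cox19, another copper-binding protein that works with the copper chaperones, was the only member called lower. It held 20.3 and 21.2 RPKM in Het and 17.02 and 17.29 RPKM in Nf1-KO, a log2 fold change of -0.35 (standard error 0.034, limma adjusted p 3.2e-04). Cox19 was also lower in the authors' deposited table, by -0.38 on the log2 scale (adjusted p 0.0023). The heme A enzymes were not called: Cox10 held 22.3 and 20.5 RPKM in Het and 23.6 and 22.4 RPKM in Nf1-KO, and Cox15 held 6.62 and 6.31 RPKM against 7.68 and 7.23 RPKM. Cox11, which delivers copper, had a log2 fold change of 0.09 and Cox14, an early assembly factor, of 0.06, with limma adjusted p of 0.201 and 0.356. Cox16 and Cox18, at 0.49 to 0.58 and 4.43 to 5.06 RPKM, had log2 fold changes of 0.01 and -0.02.

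**Figure D5:**
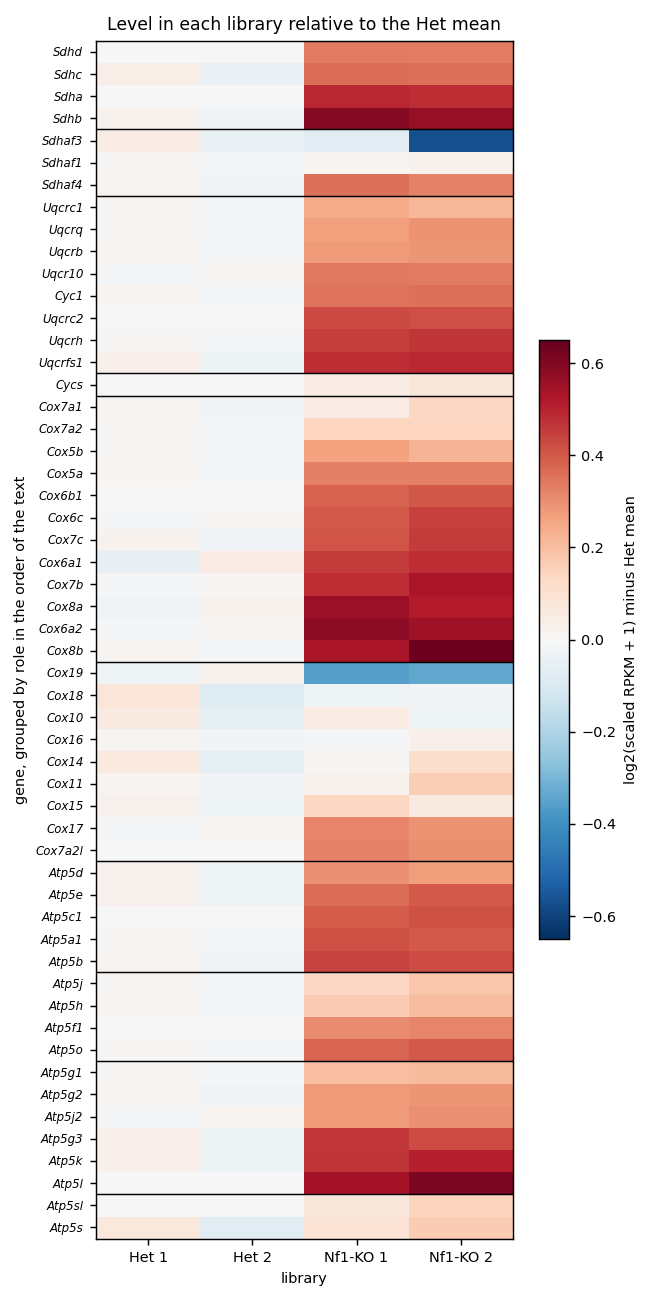
Level of each tested member in each library (columns) as log2(scaled RPKM + 1) minus the mean of the Het libraries, with genes in rows grouped by role and lines between roles. Both Nf1-KO libraries are raised across the subunit genes, Cox19 is lowered in both, and Sdhaf3 is low in Nf1-KO replicate 2.

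The catalytic head of complex V rose evenly. Atp5b, the beta subunit that forms the catalytic sites and the most abundant member of all, held 1613 and 1571 RPKM in Het and 2305 and 2284 RPKM in Nf1-KO. Its log2 fold change was 0.43 (standard error 0.018, limma adjusted p 9.0e-06). Its partner in the head, Atp5a1, held 891 and 880 RPKM in Het and 1259 and 1247 RPKM in Nf1-KO (0.41). The rotating stalk genes Atp5c1, Atp5e and Atp5d rose by 0.40, 0.38 and 0.28 on the log2 scale, and Atp5d, the lowest of the 5, held 340 and 327 RPKM in Het against 438 and 431 RPKM in Nf1-KO.

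The peripheral stalk, which holds the head still, varied more. Atp5o, the subunit at its tip, rose from 514 and 507 RPKM to 707 and 720 RPKM, a log2 fold change of 0.39. Atp5j held 257 and 254 RPKM in Het and 299 and 309 RPKM in Nf1-KO, and its log2 fold change of 0.16 was the lowest of the complex V subunit genes (limma adjusted p 0.0014). Atp5h and Atp5f1 had log2 fold changes of 0.18 and 0.31.

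In the membrane part, 3 genes encode the same mature ring subunit and did not rise by the same amount. Atp5g3, the most abundant, rose from 706 and 673 RPKM to 1010 and 989 RPKM, a log2 fold change of 0.44. Atp5g1 rose from 495 and 489 RPKM to 601 and 608 RPKM (0.20) and Atp5g2 from 231 and 225 RPKM to 295 and 298 RPKM (0.28). The log2 ratio of Atp5g3 over Atp5g1 was 0.51 and 0.46 in Het against 0.75 and 0.70 in Nf1-KO, and both Nf1-KO libraries lay above both Het libraries (exact two-sided permutation p 0.33). Atp5l, the g subunit near the dimer contact, had the highest log2 fold change of the complex, 0.58, from 253 and 252 RPKM to 393 and 414 RPKM. The neighbouring small subunit genes Atp5k and Atp5j2 rose by 0.48 and 0.29. Among the remaining Atp5 names, Atp5s held 8.40 and 7.53 RPKM in Het and 9.10 and 9.67 RPKM in Nf1-KO and was not called (0.13, limma adjusted p 0.109). Atp5sl held 15.7 and 15.8 RPKM in Het and 17.8 and 18.7 RPKM in Nf1-KO (0.11, limma adjusted p 0.041), and its call was lost without Het replicate 1, Het replicate 2 or Nf1-KO replicate 2 (limma adjusted p 0.138 to 0.164).

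Other genes of complexes III to V were read from a list of 36 names, of which 34 had a row and 28 were tested. There 5 were higher and 5 lower (17.9% each way, against 24.9% and 25.4% of all tested genes), and the median log2 fold change was 0.03. Those higher were Cox4i1, Ndufa4 (a complex IV subunit despite its name), Usmg5 (a small complex V subunit), Tmem70 and Hccs, with log2 fold changes of 0.23, 0.41, 0.29, 0.34 and 0.29. Cox4i1, the largest nuclear subunit of complex IV, held 609 and 598 RPKM in Het and 751 and 762 RPKM in Nf1-KO. Those lower were the complex IV assembly factors Coa5 and Coa3 (-0.38 and -0.25), Ttc19 and Uqcc3 of complex III (-0.30 and -0.21) and Atpaf2 of complex V (-0.18), whose call was lost without scaling (-0.09, limma adjusted p 0.075). The authors' deposited table called neither Uqcc3 nor Atpaf2 (adjusted p 0.086 and 0.079). Coa5 fell from 53.3 and 52.7 RPKM to 43.1 and 43.3 RPKM, and Ttc19 from 13.5 and 13.4 RPKM to 12.01 and 10.91 RPKM. Cox4i2, an isoform known from lung, held 2.36 and 1.68 RPKM in Het and 1.48 and 1.98 RPKM in Nf1-KO, which overlap (limma adjusted p 0.236).

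Complex I offered the nearest comparison. Of 43 Nduf names above 0, which include complex I assembly factors, Ndufa4 and Ndufa4l2, 42 were tested. There 34 were higher (81%) and 2, Ndufb5 and Ndufa4l2, lower (4.76%), against 24.9% and 25.4% of all tested genes. The median log2 fold change of the 42 was 0.22, while the 54 tested members had a median of 0.32. The difference between these medians was not tested. Transcripts of the mitochondrial genome for complexes III to V overlapped between groups as deposited. Cox2 held 30538 and 31525 RPKM in Het and 31348 and 31524 RPKM in Nf1-KO, and Cytb of complex III held 8888 and 9240 RPKM against 9116 and 9044 RPKM. Atpase6 of complex V held 39087 and 40473 RPKM in Het and 39321 and 39236 RPKM in Nf1-KO. After scaling, the log2 fold changes were -0.08 for Cox2, -0.09 for Cytb and -0.11 for Atpase6 (limma adjusted p 0.015, 0.013 and 0.0038). As deposited, the Nf1-KO mean was above the Het mean for Cox2 and Cytb and below it for Atpase6, so the direction for Cox2 and Cytb rests on the scaling.

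The authors' deposited table listed 56 members, of which it called 41 higher and 1 lower at an adjusted p under 0.05, where it called 15% of its 13985 genes higher and 16.6% lower. That table comes from the same libraries. It called 38 of 40 listed subunit genes, all but Cox7a1 and Cox6b2. Exons of Uqcrc2, Cox6a2, Cox6c, Cox11, Atp5j, Atp5l, Atp5o, Sdhaf1 and other members overlap exons of neighbouring genes in GENCODE M21, and strand use in counting is not given in the sources used here. Many of these genes also have processed pseudogenes, and how shared reads were split is likewise not given, so their levels are uncertain to that extent.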

How the data were processed

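Polyadenylation and strand settings of the libraries are not given in the sources used here; the labels name a TruSeq version 2 kit on total RNA. STAR 2.4.2a, DESeq2 and build mm9 are named in the submitters' processing notes, with no annotation. The authors deposited 1 value per gene and library, read from the values (sums of 532315 to 547144) as RPKM. Their comparison table holds, per the file headers, a signal value (mean normalized count), a log2 fold change and its standard error, a test score and a p-value with its adjusted p-value; this deposited table's sign was checked against the libraries.

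Rows without a gene name (33) were left out and the highest copy per name was kept. Genes of at least 0.5 RPKM in 2 or more libraries were tested by limma (version 3.58.1, R version 4.3.3), using log2(RPKM + 1) values, a mean-variance trend and two-sided Benjamini-Hochberg adjusted p-values over all 10690 genes. Scaling factors were trimmed means of gene log ratios without weights, after dropping the outer 30% of the ratios and 5% of the abundances on both sides. Depth was estimated from the steps of low values in transcripts under 400 bases (GENCODE M21); the total read numbers are not in the files used here. The code was tested on simulated data. No batch is given in the labels, so no within-batch value exists.

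The members and lists were chosen with earlier results of these data known. Values per library are given for the highest-mean, most raised and least raised gene of each role, for isoform pairs, for genes called lower and for up to 8 not called, and other members were named by their fold change. Alternatives were filters, pseudocount, scaling, variance trend, replicate block, summed copies and leaving out each library.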

Additional observations from a re-analysis of the deposited data

How the results depend on the processing

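Of 1352 values under 13 alternative settings, 1284 were counted as the same, among them 1031 of the 1065 for single genes. Single genes counted when they kept the reported call, and its direction if either fit called them. Values with no test counted within the replicate SD, and counts within 1.5 times. Uncalled genes thus counted even where the sign changed, as for Cox10 (0.01 reported, and down to -0.05 with 1 library left out). All 39 tested subunit genes were called higher in each setting except that Cox7a1 was not with no filter, without a variance trend, or without Het replicate 1, Het replicate 2 or Nf1-KO replicate 2. The count of higher members ran from 41 to 48.

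Without scaling, the median log2 fold change of all genes was 0.07. Medians then were 0.41 for the members, 0.48 for subunits, 0.13 for assembly factors, and 0.52, 0.44, 0.52 and 0.48 for subunits of complexes II, III, IV and V. The summed RPKM gave log2 ratios of 0.57, 0.44, 0.49 and 0.47 in that order, and 6 assembly factors and 11 other pathway genes were higher; Taco1 turned from -0.01 to 0.081. Among members with small log2 fold changes, Cox7a1 went to 0.19, Cox7a2 to 0.23, Atp5j to 0.25, Atp5h to 0.28 and Atp5sl to 0.20. With no filter, which adds genes near 0, medians were 0.29 for the members, 0.35 for subunits, 0.32 for complex III and 0.39 for complex IV. With 1 RPKM in every library they were 0.34 for the members and 0.36 for complex III.

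Leaving out 1 library gave medians of 0.31 to 0.34 for the members, 0.38 to 0.41 for subunits, 0.34 to 0.36 for complex III, 0.41 to 0.46 for complex IV and 0.35 to 0.41 for complex V. The log2 ratio of Cox8b over Cox8a differed by -6e-04 without Het replicate 2, by -0.039 without Nf1-KO replicate 2, and by up to 0.11. Lower members, and lower assembly factors, numbered 1 to 2, the second being Sdhaf3 without Nf1-KO replicate 1, where Cox11 also became higher (0.17, limma adjusted p 0.034). Leaving out a library also lowers the residual degrees of freedom.

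Replicate numbers did not mark pairs (correlation of same-numbered deviations -0.018). In a fit with a replicate block, 5343 genes passed, 43 members were higher and 2 lower members, both assembly factors, were called; Sdhaf3 gained a call (limma adjusted p 0.032) and Cycs lost it (0.056).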
